A study of Bos taurus with 16 samples.

Results

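The oxidative stress defence genes examined here are a list of 32 genes whose products remove reactive oxygen species or repair what these oxidise. They comprise superoxide dismutases, catalase, glutathione peroxidases, peroxiredoxins, the thioredoxin and glutathione systems, heme oxygenase, a quinone reductase, and the pair of proteins that switches many of these genes on. They were listed by name, and 30 of the 32 occurred in the deposited tables, among 20629 genes and unmatched transcripts in all. GSTM1 and GSTP1, both glutathione transferases, were not analysed here. Of the 30, 27 passed the filter on low counts. SOD2, SOD3 and GSTK1 did not, with 18, 80 and 11 counts over all 16 libraries, so their levels are not described further.

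Superoxide formed by mitochondria and by steroid-making enzymes is turned into hydrogen peroxide by superoxide dismutases. Catalase, glutathione peroxidases and peroxiredoxins then reduce the peroxide to water. The latter families draw their electrons from glutathione and thioredoxin, which glutathione reductase and thioredoxin reductases recharge at the expense of NADPH. In cells under oxidative or electrophilic stress, KEAP1 stops driving the breakdown of the transcription factor NRF2 (gene NFE2L2), which then turns on genes such as HMOX1, NQO1, GCLC, GCLM, TXNRD1 and SRXN1. Granulosa cells, the somatic cells that line the ovarian follicle and make oestradiol, use these systems while steroid synthesis is high, and macrophages use them while they produce superoxide to kill microbes and break down heme from old red cells.

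The study sequenced poly(A) RNA from 16 libraries of Holstein cows, 9 titled control and 7 titled treatment. Per the labels' protocols the RNA came from granulosa cells aspirated out of the dominant follicle 63 ± 3 days after calving, in a cohort of 45 lactating cows given the same synchronisation hormones (GnRH, then prostaglandin F2α) beforehand. What treatment stands for is not given in the sources used here. The series title names uterine disease that had resolved, and the design text says that cows with metritis received ceftiofur hydrochloride, but no library is tied to a diagnosis, a drug or a single cow. P-values therefore measure the spread between these libraries, which may be in part technical.

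Library totals were 8111862 to 14348753 counts, and 3 counts, taken as the detection limit, corresponded to 0.212 to 0.375 CPM, that is, counts per 1000000 counts of the library. The libraries fell into 2 kinds by INHA, the inhibin alpha subunit made by granulosa cells. In 9 libraries, called granulosa-rich, INHA lay between 1759 and 3041 CPM before scaling. They carry the titles control 2, 3, 4, 7 and 8 and treatment 4, 5, 6 and 7. In the other 7, called leukocyte-rich, it lay between 0.404 and 111 CPM. They carry the titles control 1, 5, 6 and 9 and treatment 1, 2 and 3. All 12 granulosa markers together, INHA included, summed to 48296 to 228028 CPM in the first kind and 174 to 4988 CPM in the second. Of the 12, 10 were fully apart, INHA again included. CYP19A1 overlapped, at 279.6 to 29332 CPM and 0.984 to 899 CPM, as did GATM, at 10.7 to 131 CPM and 28.5 to 117 CPM. The 8 pan-leukocyte markers summed to 17.9 to 791 CPM and 4484 to 6603 CPM, and the 6 monocyte and macrophage markers found summed to 16.7 to 975 CPM and 4577 to 8932 CPM. Other leukocyte lists overlapped between the kinds. T and NK cell markers summed to 3.01 to 131 CPM and 103 to 851 CPM, and B and plasma cell markers to 5.21 to 2416 CPM and 20 to 303 CPM. The RNA of the 7 leukocyte-rich libraries thus goes against the protocol's cell type. The tissue field reads blood for all 16. The 6 erythroid markers found summed to at most 45.2 CPM in any library and the 5 neutrophil markers to at most 785 CPM. HBA1, CSF3R and CXCR2 of these lists were not found, and HBA had only 7 counts in all. Whether the leukocyte-rich RNA came from blood was not tested. The kinds are not groups of the study and were set from the data, so differences between them are given as a description with no test. In such bulk samples, fewer cells of a type and less RNA per cell cannot be told apart.

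All levels below are CPM after scaling by edgeR's trimmed mean of M-values (TMM). They are not corrected for transcript length, so they compare libraries and not genes. In 9 of the 27 tested members (33.3%) every granulosa-rich library lay above every leukocyte-rich library, against 8.54% of all 9653 features tested. Those 9 were SOD1, GPX1, GPX3, GPX4, GPX7, GPX8, PRDX2, GCLC and GSTA1. In 3 members (11.1%), CAT, GSR and HMOX1, every leukocyte-rich library lay above every granulosa-rich library, against 10.5% of all features. The other 15 members overlapped, and in 8 of the 27 the medians of the 2 kinds lay within 1.5-fold of each other. The median log2 ratio of granulosa-rich over leukocyte-rich medians was 0.40 over the members and -0.03 over all features. With library size alone as the scaling, SOD1 and PRDX2 overlapped as well, which left 7 members with granulosa-rich libraries above. When only transcript accessions of the gene table's own version were used, 22 of the 27 members were fitted. GPX3 and PRDX2 gave no ratio between kinds there, and the other 7 stayed apart.

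**Figure D1:**
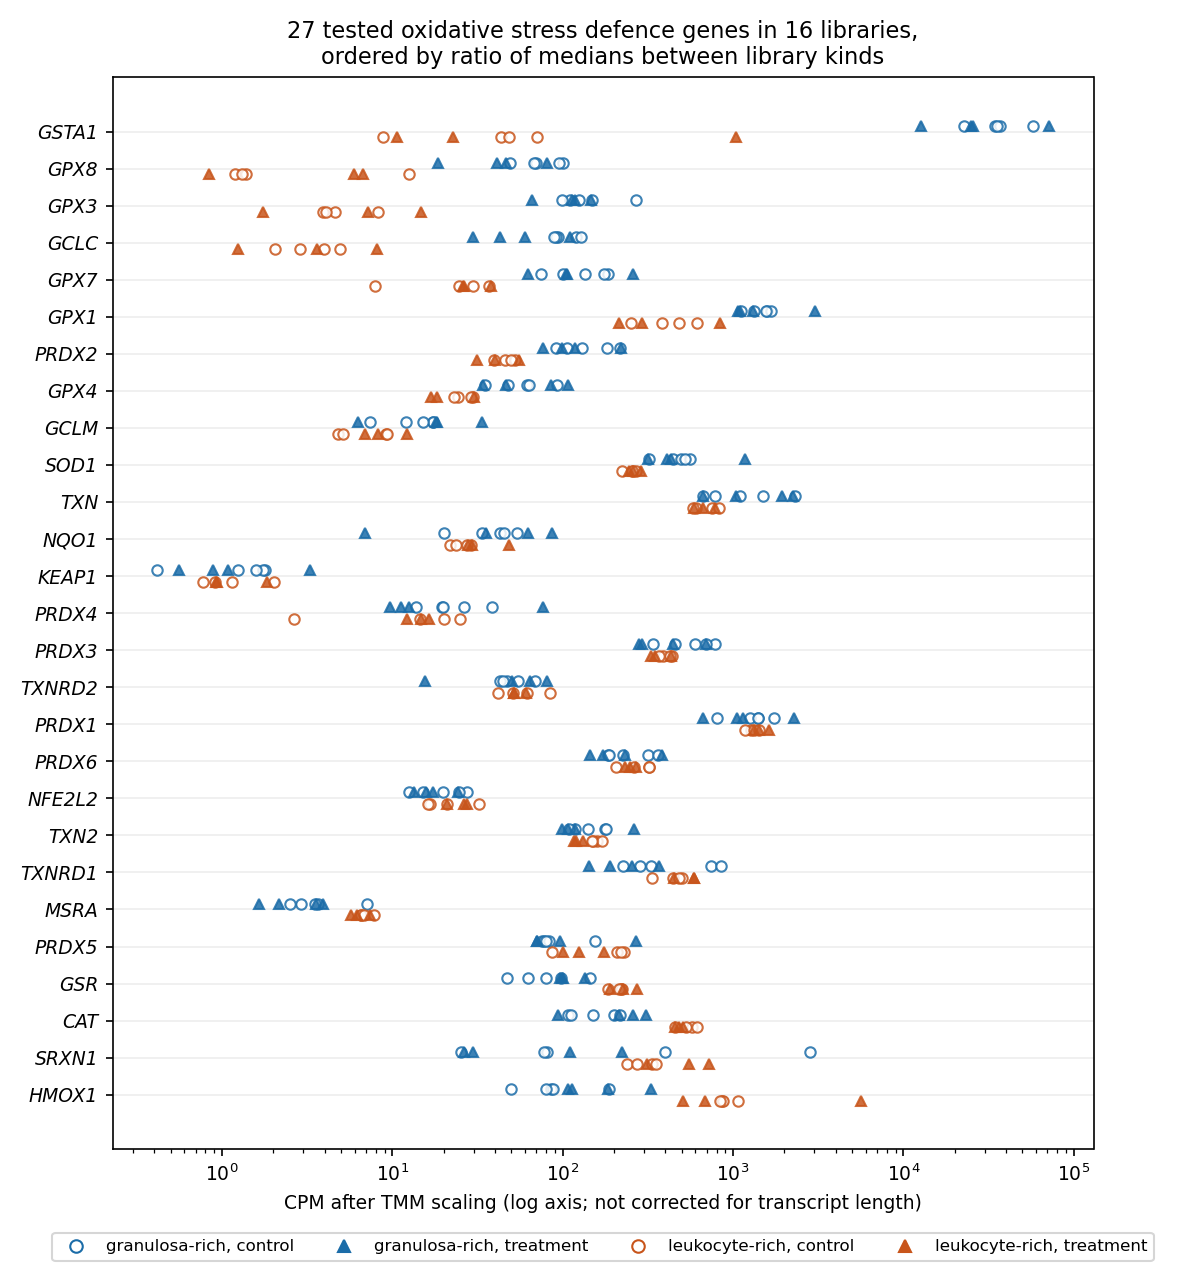
CPM after TMM scaling (log axis) of the 27 tested members in each of the 16 libraries, 1 symbol per library, coloured by kind of library and shaped by label. Members run from the largest granulosa-rich excess (GSTA1, top) to the largest leukocyte-rich excess (HMOX1, bottom), and the symbols of the 2 kinds are fully apart in 12 of the 27.

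Enzymes that act on superoxide and on free hydrogen peroxide differed in their pattern. SOD1, the cytosolic copper-zinc superoxide dismutase, lay between 315 and 1183 CPM (median 446) in the granulosa-rich libraries and between 222 and 290.1 CPM (median 257) in the leukocyte-rich ones. The ratio of the medians was 1.74, and treatment replicate 5 alone stood above 557 CPM. CAT (catalase, NM_001035386.2), which splits hydrogen peroxide in peroxisomes, went the other way. It stood at 151, 200.4, 108, 112 and 217 CPM in the granulosa-rich control replicates 2, 3, 4, 7 and 8 and at 257, 309, 213 and 94.2 CPM in treatment replicates 4, 5, 6 and 7. The leukocyte-rich control replicates 1, 5, 6 and 9 held 575, 454, 529.9 and 617 CPM, and treatment replicates 1, 2 and 3 held 508, 459 and 480.2 CPM. All 7 leukocyte-rich libraries were thus above all 9 others, with a median 2.53 times as high, while the labels overlapped within each kind.

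Glutathione peroxidases use glutathione to reduce peroxides, and the 5 on the member list (GPX1, GPX3, GPX4, GPX7 and GPX8) had every granulosa-rich library above every leukocyte-rich one. GPX2, a further glutathione peroxidase from the wider list described below, did not, at 0.326 to 39.7 CPM against 0 to 54.4 CPM. GPX3 (NM_174077.4 and NR_138142.1), the secreted form, stood at 124, 109.8, 149, 271 and 99.6 CPM in granulosa-rich control replicates 2, 3, 4, 7 and 8 and at 118, 65.9, 147 and 114 CPM in treatment replicates 4, 5, 6 and 7. In leukocyte-rich libraries it stood at 4.62, 3.94, 8.2 and 4.08 CPM in control replicates 1, 5, 6 and 9 and at 7.21, 14.7 and 1.75 CPM in treatment replicates 1, 2 and 3. The medians differed 25.6-fold, and the labels overlapped within each kind.

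GPX8 (NM_001046088.2 and XM_015459069.1) and GPX7 (NM_001101113.2) are the glutathione peroxidase relatives of the endoplasmic reticulum, where they use peroxide during disulfide bond formation. For GPX8 the granulosa-rich values were 70, 49.3, 68.1, 101 and 95.8 CPM in control and 41, 80.8, 46.6 and 18.5 CPM in treatment, in the order of replicates used above. Its leukocyte-rich values were 1.19, 1.39, 12.5 and 1.32 CPM in control and 5.94, 6.77 and 0.834 CPM in treatment. The leukocyte-rich libraries thus split into 3 with 5.94 to 12.5 CPM and 4 with at most 1.39 CPM, across both labels, and the ratio of medians of 48.9 depends on which side the middle library falls. Leaving out control replicate 1, 5 or 9 or treatment replicate 3 moved the log2 ratio from 5.61 to 4.22 or 4.23. The 3 libraries with more GPX8, control replicate 6 and treatment replicates 1 and 2, were also the highest of the 7 in COL3A1, a collagen gene on the theca list, at 770.4, 1435 and 2400.4 CPM against 47.3 to 288 CPM in the other 4. COL1A1 stood at 253, 1462 and 1933 CPM in the 3 and at 51.4 to 285 CPM in the 4. The other genes of the theca list did not split this way. CYP17A1 stood at 3.8, 11.6 and 0.72 CPM in the 3 and at 0.14 to 3.09 CPM in the 4. INSL3 stood at 0.608, 2.73 and 0.072 CPM in the 3 and at 0 to 1.17 CPM in the 4. LHCGR was at 0 CPM in all of them but treatment replicate 1, with 1.75 CPM. The 5 theca and stroma markers summed to 100.2 to 4334 CPM over the 7 libraries, and their part in the GPX8 values was not tested.

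For GPX7 the granulosa-rich libraries held 136, 74.2, 184, 174 and 101 CPM in control and 106, 257, 104 and 62.3 CPM in treatment. The leukocyte-rich libraries held 29.7, 36.9, 24.6 and 7.94 CPM in control and 26.1, 38 and 26.5 CPM in treatment, a ratio of medians of 4.01. GPX1, the most widespread cytosolic form, ranged from 1072 to 3023 CPM against 213 to 836 CPM, with a ratio of 3.45. GPX4, which reduces lipid peroxides within membranes, ranged from 34.1 to 107 CPM against 16.9 to 30 CPM, with a ratio of 2.54. The sum for GPX4 runs over 3 accessions. Genes with 3 or more accessions had a median of 341 counts in all, against 1332 for genes with a single one. Whether reads shared between accessions were dropped was not tested, so the levels of such genes may be understated. Whether any such loss was equal in all libraries was not tested either.

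The 6 peroxiredoxins reduce peroxides with a reactive cysteine and take their electrons from thioredoxin, except for PRDX6, which uses glutathione. Only PRDX2 was apart by kind among the 6, at 76.5 to 221 CPM in granulosa-rich and 31.5 to 55.1 CPM in leukocyte-rich libraries (ratio 2.58). PRDX1 had nearly equal medians, 1253 and 1333 CPM, but ranged from 666 to 2282 CPM among the granulosa-rich libraries and only from 1170.0 to 1631 CPM among the leukocyte-rich ones. PRDX6 was likewise more spread in granulosa-rich libraries, at 145 to 385 CPM and 205 to 322 CPM. PRDX5, found in mitochondria and peroxisomes, had a leukocyte-rich median 2.18 times the granulosa-rich one, with overlapping ranges of 86.4 to 229 CPM and 70.3 to 271 CPM. PRDX4, the secretory pathway form, lay between 9.7 and 76.9 CPM in granulosa-rich and between 2.65 and 25 CPM in leukocyte-rich libraries.

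PRDX3 (NM_174432.2), the mitochondrial peroxiredoxin, stood at 454, 337, 599, 781 and 689.8 CPM in the granulosa-rich controls and at 294, 697, 447 and 279 CPM in the granulosa-rich treatment libraries. The leukocyte-rich libraries held 439, 388, 424 and 370.1 CPM in control and 328, 347 and 432 CPM in treatment. The granulosa-rich libraries were the more spread, on either side of the narrow leukocyte-rich range, and neither kinds nor labels were apart.

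Thioredoxin (TXN) and its mitochondrial relative TXN2 pass electrons to the peroxiredoxins, TXNRD1 and TXNRD2 recharge them in cytosol and mitochondria, and SRXN1 (sulfiredoxin) repairs peroxiredoxins whose cysteine has been oxidised too far. TXN ranged from 666 to 2322 CPM in granulosa-rich and from 579.6 to 828 CPM in leukocyte-rich libraries. TXNRD2 had medians of 50.7 and 51.8 CPM. In none of the 5 genes of this system were the kinds fully apart.

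SRXN1 (NM_001205988.1) varied more among the granulosa-rich libraries than any other tested member. It stood at 25.4, 80.9, 399.6, 2846 and 77.4 CPM in control replicates 2, 3, 4, 7 and 8 and at 109.8, 26.5, 29.6 and 223 CPM in treatment replicates 4, 5, 6 and 7. The leukocyte-rich libraries held 237, 274, 333 and 354 CPM in control and 721, 314 and 555 CPM in treatment. Control replicate 7 was the highest of all 16, while 7 of the 9 granulosa-rich libraries lay below every leukocyte-rich library.

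TXNRD1 (NM_174625.3) stood at 284, 227, 742, 846 and 329 CPM in the granulosa-rich controls and at 256, 142, 190.1 and 369 CPM in the granulosa-rich treatment libraries. Its leukocyte-rich values were 335, 504, 447 and 482 CPM in control and 589, 449 and 589 CPM in treatment. The same 3 granulosa-rich libraries, control replicates 4 and 7 and treatment replicate 7, were the highest in SRXN1 and in TXNRD1. For TXN2 (NM_174208.2), at 118, 109, 178, 179 and 141 CPM in control and 98.8, 118, 108 and 261 CPM in treatment, these 3 were again the highest granulosa-rich libraries. Their TMM factors, by which library size is multiplied, were 0.809, 0.614 and 0.988, and those of the other 6 ran from 0.807 to 1.11. The 3 libraries were also the highest of the 9 in CYP17A1, the theca cell enzyme that makes androgen, at 866, 616 and 744 CPM in that order against 1.09 to 468 CPM in the other 6. The other theca markers did not follow. INSL3 stood at 97.3, 108 and 136 CPM in the 3, but at 152 CPM in control replicate 8 and 253 CPM in treatment replicate 5. LHCGR was at 98.3, 60.8 and 9.32 CPM in the 3 and at 74.8 CPM in control replicate 8. COL1A1 and COL3A1 were at most 45.5 CPM in the 3, against 353 to 774 CPM in control replicates 3 and 8. The 5 theca markers together summed to 125 to 1822 CPM over the 9 granulosa-rich libraries, and their part in these values was not tested.

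Glutathione is made by glutamate-cysteine ligase, with GCLC as its catalytic and GCLM as its modifier subunit, and is recycled by glutathione reductase, GSR. GCLC (XM_005223236.3 and NM_001083674.1) stood at 119.9, 93.5, 128, 91 and 89 CPM in the granulosa-rich controls and at 59.8, 29.8, 111 and 42.8 CPM in the granulosa-rich treatment libraries. The leukocyte-rich libraries held 2.87, 2.05, 3.95 and 4.96 CPM in control and 8.18, 3.6 and 1.25 CPM in treatment. The kinds were apart with a 25.3-fold ratio of medians, a log2 ratio of 4.66, which became 5.58 with same-version accessions alone. Of the 4 granulosa-rich treatment libraries, 3 lay below all 5 controls.

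GCLM (NM_001038143.1) stood at 17.4, 12, 17.4, 15.2 and 7.4 CPM in the granulosa-rich controls and at 18.2, 6.3, 18.1 and 33.6 CPM in the treatment libraries of that kind, and in leukocyte-rich libraries at 4.83, 5.17, 9.19 and 9.26 CPM in control and 12.2, 6.91 and 8.26 CPM in treatment. The catalytic subunit was thus apart by kind, while GCLM, with a ratio of medians of 2.11, overlapped. GSR (NM_001114190.2) stood at 98.4, 79.6, 62.7, 46.9 and 145 CPM in the granulosa-rich controls and at 96.2, 99.7, 101 and 135 CPM in treatment. It was above all of these in the leukocyte-rich libraries, at 184, 222, 219.6 and 213 CPM in control and 227, 189 and 274 CPM in treatment, 2.23 times as high by the medians.

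GSTA1 (NM_001078149.1), an alpha class glutathione transferase that joins glutathione to electrophiles and is known from steroid-making tissues, had the largest ratio between kinds of all tested members. It stood at 34261, 22549.5, 36872, 57997 and 35647 CPM in the granulosa-rich controls and at 24973, 71484, 25662 and 12736 CPM in treatment. The leukocyte-rich libraries held 70.6, 8.86, 43.4 and 48.2 CPM in control and 1036, 22.8 and 10.7 CPM in treatment. The ratio of medians was 789.8, and the highest leukocyte-rich library was still far below the lowest granulosa-rich one.

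This single gene took 1.26% (treatment replicate 7; Wilson 95% interval 1.25% to 1.26%) to 5.77% (treatment replicate 5; 5.75% to 5.78%) of all transcript counts in granulosa-rich libraries, and at most 0.118% (0.116% to 0.121%) in leukocyte-rich ones. These intervals cover counting error only. Without it, the members together took 0.549% to 0.955% of counts in granulosa-rich and 0.633% to 1.34% in leukocyte-rich libraries, ranges that overlapped. GSTA1 has close copies in the cow (GSTA2, GSTA3 and GSTA5), and how reads common to them were counted is not given in the sources used here, so its level is uncertain by what they share.

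Some but not all granulosa markers moved with GSTA1 in the libraries at its edges. The leukocyte-rich treatment replicate 1, with 1036 CPM, also held 97.6 CPM of INHA, 2155 CPM of INHBA and 899 CPM of CYP19A1 (aromatase). The other 6 leukocyte-rich libraries held at most 4.19, 85.6 and 32.4 CPM of these granulosa genes. Treatment replicate 7, with the lowest GSTA1 among granulosa-rich libraries, held 279.6 CPM of CYP19A1 against at least 7599 CPM in the other 8. It was also their lowest in INHBA, FSHR, AMH, HSD17B1 and FST. It was not the lowest in INHA (2425 CPM against 1584 to 3599 CPM), FOXL2, GATM, SERPINE2, INHBB or NR5A2. Treatment replicate 5, with the highest GSTA1, was highest in HSD17B1, GATM and FST and in none of the other granulosa markers. The part of these markers in the values was not tested.

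HMOX1 (NM_001014912.1), heme oxygenase, which breaks heme into biliverdin, iron and carbon monoxide, was the member with the largest leukocyte-rich excess. It stood at 49.5, 85.6, 87.3, 186 and 80 CPM in the granulosa-rich controls and at 329.7, 185, 114 and 108 CPM in treatment. The leukocyte-rich libraries held 862, 879, 1070.0 and 844 CPM in control and 5671, 510.3 and 688 CPM in treatment. The kinds were apart by a ratio of medians of 7.98, and treatment replicate 1 stood far above all other libraries.

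NQO1, a quinone reductase and a common readout of NRF2, had overlapping ranges of 6.93 to 86.9 CPM and 21.8 to 48.7 CPM. The regulators themselves had overlapping ranges. NFE2L2 had medians of 17.3 CPM in granulosa-rich and 21 CPM in leukocyte-rich libraries, and KEAP1 of 1.25 and 0.936 CPM. KEAP1 was sparse, with 240 counts over all libraries. Transcript levels do not show how much NRF2 protein is present. MSRA, which repairs oxidised methionine, was at 1.64 to 7.08 CPM in granulosa-rich and 5.76 to 7.83 CPM in leukocyte-rich libraries, and with control replicate 8 left out its kinds no longer overlapped, which gave 4 members with leukocyte-rich libraries above.

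**Figure D2:**
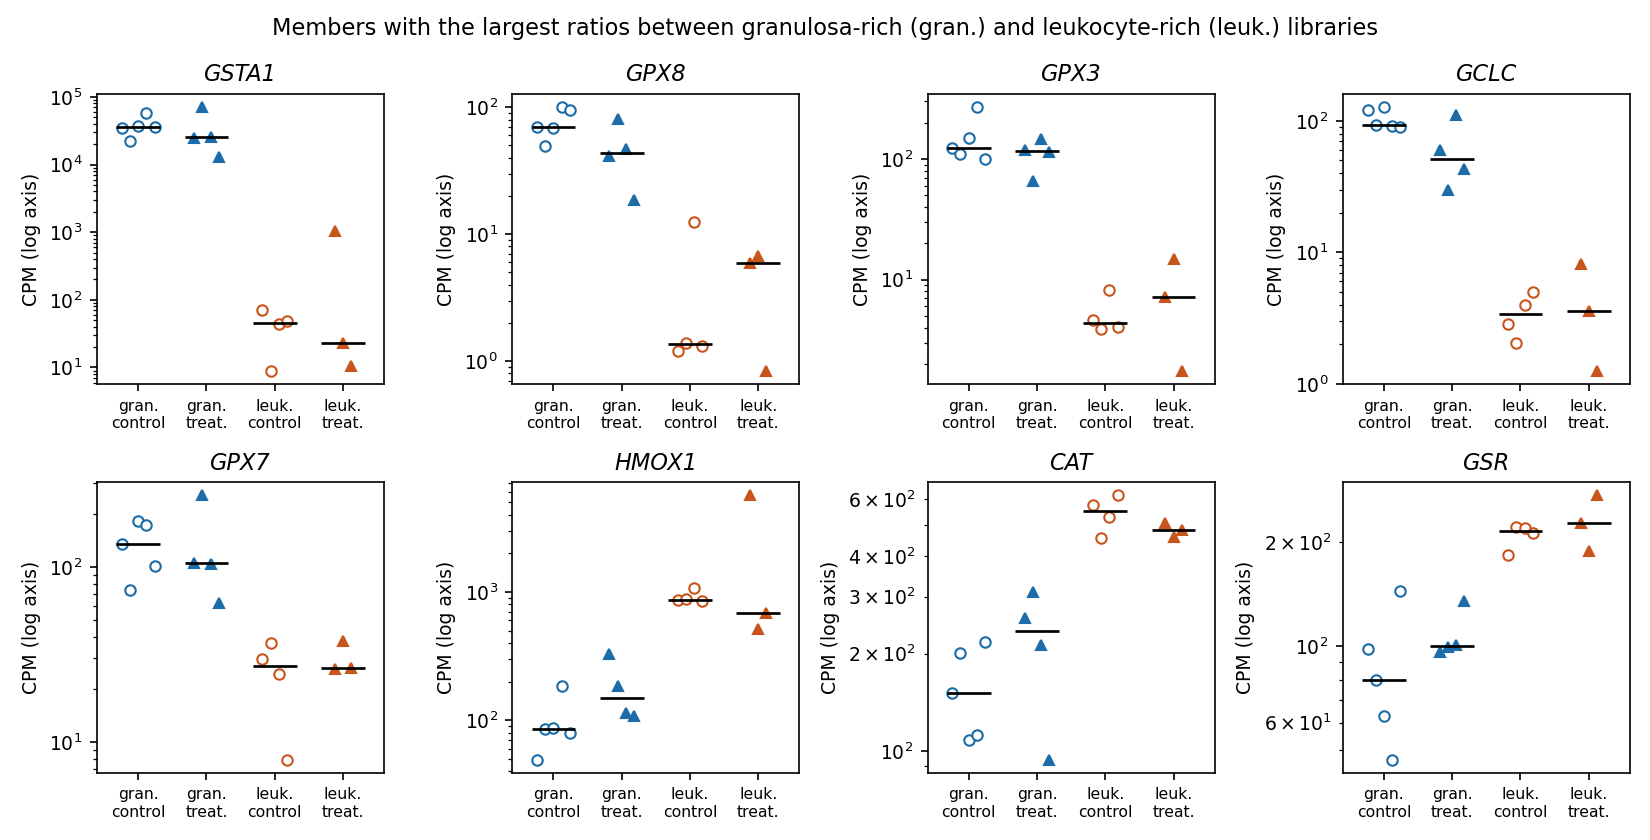
CPM after TMM scaling (log axes) of the 8 members whose kinds did not overlap and whose ratios were largest in each direction, by kind and label, 1 symbol per library with a bar at the median. GSTA1, GPX8, GPX3, GCLC and GPX7 are higher in all granulosa-rich libraries and HMOX1, CAT and GSR in all leukocyte-rich libraries, while control and treatment symbols overlap within each kind.

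The study's own comparison is of treatment with control. Over all 16 libraries, edgeR's quasi-likelihood test called 0 of the 27 members and 0 of 9653 features (0%) at a Benjamini-Hochberg adjusted p under 0.05, and DESeq2 and limma-voom also called 0. At an unadjusted p under 0.05 edgeR had 0 members and 163 features (1.69%). The member count was 1 without treatment replicate 5 or treatment replicate 7, beside 225 of 9982 and 223 of 9747 features. Fitted values were higher in treatment for 14 members and lower for 13, with a median log2 fold change of 0.01, and 52.1% of all features were higher. The members with the lowest unadjusted p were HMOX1, with a log2 fold change of 1.24 ± 0.91 (SE), PRDX3, with -0.30 ± 0.24, and GCLM, with 0.45 ± 0.40, each at an adjusted p of 0.9999 by edgeR. HMOX1 rests on treatment replicate 1, without which its log2 fold change was -0.52, and GCLM on treatment replicate 7, without which it was 0.10.

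Within the granulosa-rich libraries, 5 control against 4 treatment, edgeR called 0 of 27 members and 0 of 9272 features (0%). At an unadjusted p under 0.05 there were 1 member (3.7%) and 433 features (4.67%). DESeq2 called 26 features, none of them a member, and limma-voom called 0. Fitted values were higher in treatment for 14 members and lower for 13. In 0 members did the labels not overlap, against 0.818% of features with every treatment library above every control and 0.725% with every control above.

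The 3 granulosa-rich members with the lowest p were TXNRD1, with a log2 fold change of -1.01 ± 0.44 (SE), HMOX1, with 0.92 ± 0.42, and SRXN1, with -2.77 ± 1.33, each at an adjusted p of 0.983 by edgeR. TXNRD1 was the member with an unadjusted p under 0.05. The SRXN1 value rests on control replicate 7: without it the log2 fold change was -0.59. TXNRD1 was at -0.74 without control replicate 7 and at -0.81 without control replicate 4. HMOX1 was at 0.46 without treatment replicate 4, which held 329.7 CPM of it. Among the 9, this library was highest in CD68 (487 CPM against 6.35 to 153 CPM), CD14 and MSR1. It was not the highest in CSF1R, at 103 CPM against up to 129 CPM, nor in CD163 or VSIG4. The monocyte and macrophage markers summed to 16.7 to 405 CPM in granulosa-rich controls and 206 to 975 CPM in granulosa-rich treatment libraries, and their part in the HMOX1 values was not tested. GCLC, with 3 of 4 treatment libraries below all controls, had a log2 fold change of -0.77 ± 0.38 (adjusted p = 0.983 by edgeR).

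Within the leukocyte-rich libraries, 4 control against 3 treatment, edgeR called 0 of 27 members and 0 of 9912 features (0%), and DESeq2 and limma-voom also called 0. At an unadjusted p under 0.05 there were 2 members, TXN2 and SRXN1, and 259 features (2.61%). Fitted values were higher in treatment for 16 members and lower for 11. The labels did not overlap in 1 member (3.7%), with every control above, against 2.47% of features. Every treatment library was above every control in 0 members, against 1.95% of features. The member was TXN2, at 159, 149.9, 171 and 148 CPM in control and 117, 132 and 119 CPM in treatment, with a log2 fold change of -0.34 ± 0.12 (adjusted p = 0.9996 by edgeR). SRXN1 had a log2 fold change of 0.84 ± 0.29 (adjusted p = 0.9996 by edgeR), which was 0.54 without treatment replicate 1. GSTA1, at 3.09 ± 1.5 (adjusted p = 0.9996 by edgeR), turned to -1.34 without treatment replicate 1, the library with the granulosa transcripts.

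**Figure D3:**
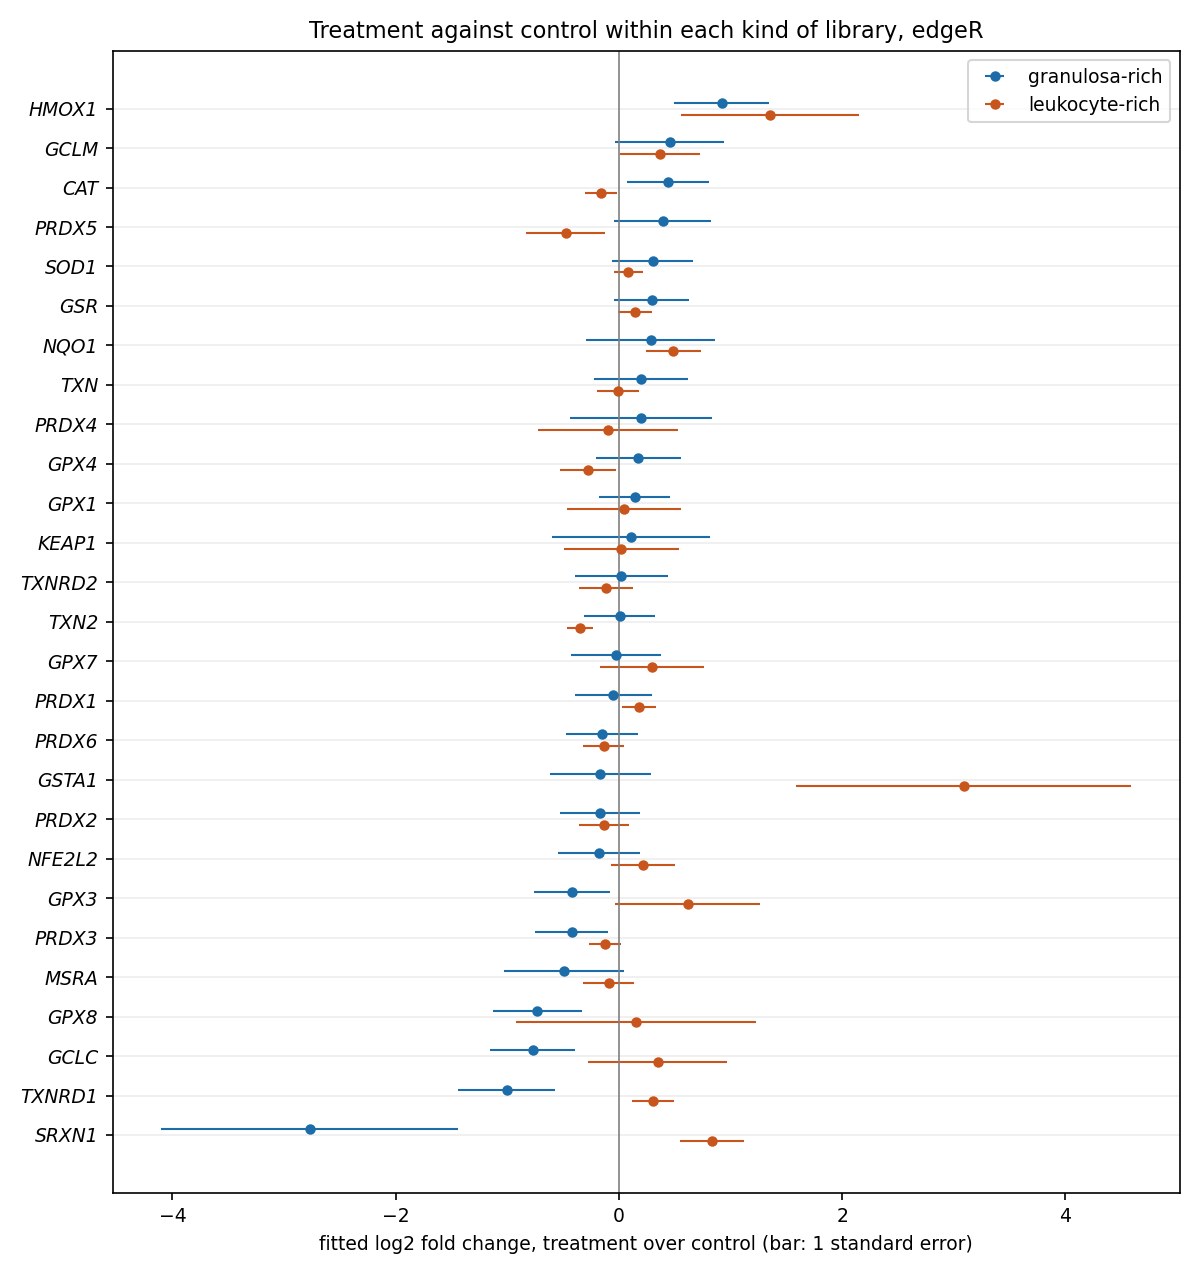
Fitted log2 fold change of treatment over control (edgeR, points) with 1 standard error on either side (bars) for the 27 tested members, within the granulosa-rich and the leukocyte-rich libraries. Most points lie within 1 log2 unit of 0, SRXN1 (-2.77, granulosa-rich) and GSTA1 (3.09, leukocyte-rich) lie farthest out with wide bars, and 0 of the members passed the adjusted threshold.

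The difference between the 2 treatment effects was tested as an interaction in all 16 libraries, leukocyte-rich minus granulosa-rich. EdgeR called 0 of 27 members and 0 of 9653 features (0%), limma-voom called 0, and DESeq2 called 29 features, of which 0 were members. At an unadjusted p under 0.05 there were 3 members and 515 features (5.34%). Leaving out 1 library moved the member counts at this unadjusted level to 0 to 3 in the interaction, 0 to 4 in granulosa-rich libraries and 1 to 5 in leukocyte-rich ones. All features at this level then numbered 361 to 777, 259 to 640 and 170 to 380 in the same order, of 8944 to 10477 tested. The interaction had 0 without control replicate 7 and 1 without any of control replicates 1, 4, 5 and 9 or treatment replicates 1, 4, 5 and 6. The granulosa-rich count was 0 without control replicate 4 or treatment replicate 4, 2 without control replicate 2, 3 or 8 or treatment replicate 6, and 4 without treatment replicate 5 or 7. The latter stood beside 554 of 10029 and 640 of 9603 features. The leukocyte-rich count was 1 without control replicate 1, 5 or 6 or treatment replicate 1, and 5 without treatment replicate 2, beside 323 of 10353 features. With all libraries, the 3 members of the interaction were TXNRD1, with a difference in log2 fold change of 1.31 ± 0.57 (SE), SRXN1, with 3.64 ± 1.60, and GSTA1, with 3.21 ± 1.47, each at an adjusted p of 0.914 by edgeR. Without control replicate 7 SRXN1 was at 1.41, and without treatment replicate 1 GSTA1 was at -1.21.

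**Figure D4:**
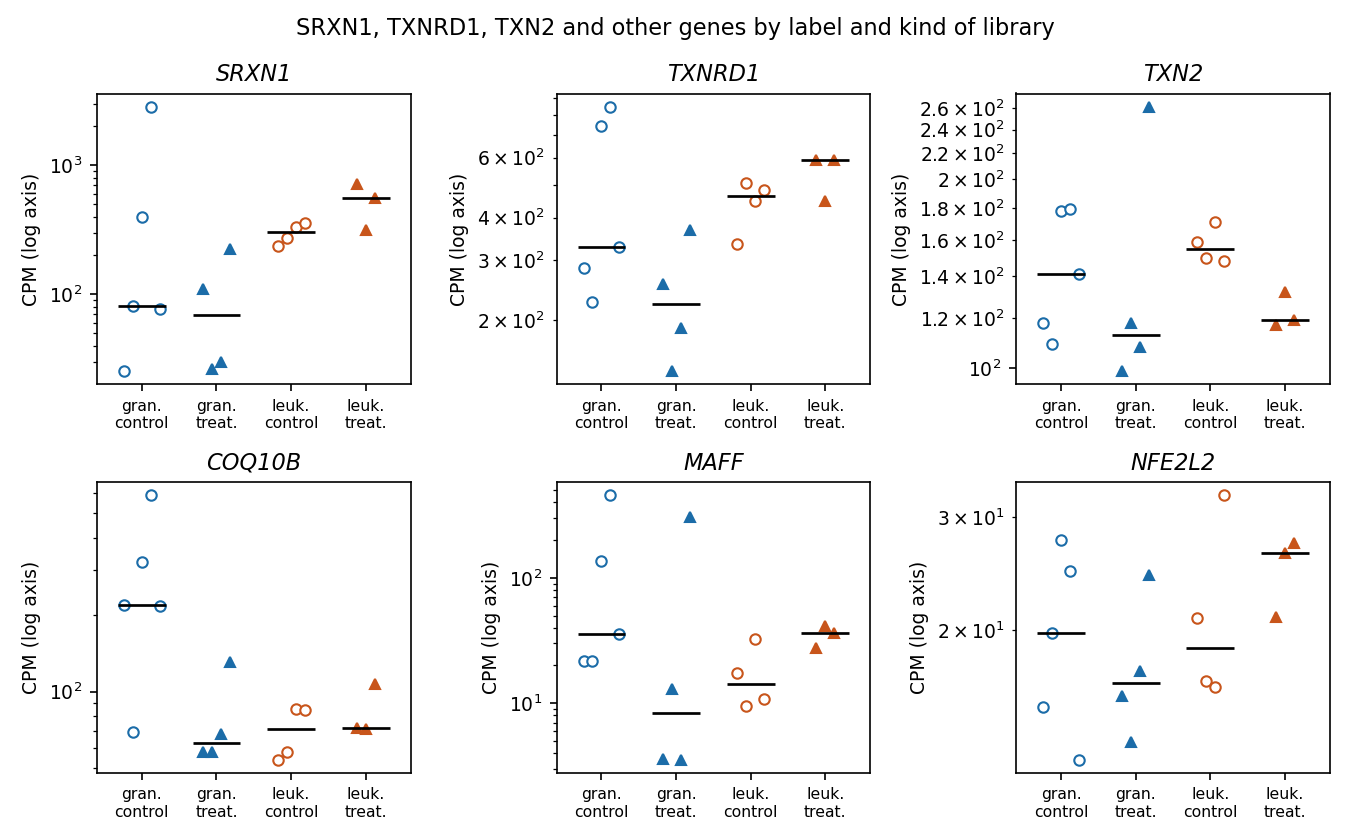
CPM after TMM scaling (log axes) of SRXN1, TXNRD1, TXN2, COQ10B, MAFF and NFE2L2 by kind and label, 1 symbol per library with a bar at the median. In SRXN1, TXNRD1, TXN2 and MAFF the 3 highest granulosa-rich libraries are control replicates 4 and 7 and treatment replicate 7, and the labels overlap in all panels but TXN2 in the leukocyte-rich libraries.

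A wider list of 125 genes of the same pathways, none of them among the 32, was examined alongside: 106 distinct genes of it occurred in the tables and 86 passed the filter. In 13 of the 86 (15.1%) every granulosa-rich library was above every leukocyte-rich one and in 22 (25.6%) the reverse held, beside the 8.54% and 10.5% of all features given above. Among the genes whose kinds did not overlap, the largest ratios toward granulosa-rich libraries were those of GSTA5 (ratio of medians 555), GSTM3 (176) and ME1 (78). GSTA5 and GSTM3 are further glutathione transferases and ME1, the cytosolic malic enzyme, makes NADPH. ME1 ranged from 222 to 681 CPM in granulosa-rich and from 1 to 23.2 CPM in leukocyte-rich libraries. The largest toward leukocyte-rich libraries among them were those of NCF1 (36.7), UCP2 (14.7) and XDH (14.3). NCF1 is a cytosolic subunit of the phagocyte NADPH oxidase, UCP2 an uncoupling protein of the inner mitochondrial membrane, and XDH the xanthine dehydrogenase that can itself release superoxide. XDH ranged from 6.03 to 246 CPM in granulosa-rich and from 745 to 3299 CPM in leukocyte-rich libraries.

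Of this wider list, edgeR called 0 genes between treatment and control in each of the 3 fits and 0 in the interaction. At an unadjusted p under 0.05 it had 2 of 86 genes over 16 libraries (1.69% of all features), 4 of 84 in granulosa-rich libraries (4.67%), 1 of 81 in leukocyte-rich libraries (2.61%) and 6 of 86 in the interaction (5.34%). DESeq2 called 1 gene of the list, CHAC1, in granulosa-rich libraries (26 of all 9272 features) and in the interaction (29 of 9653), and limma-voom called 0. The lowest p over all libraries were those of COQ10B, a coenzyme Q chaperone, with a log2 fold change of -1.22 ± 0.49 (SE), and PARK7 (DJ-1, a redox-sensitive protein), with -0.69 ± 0.32, both at an adjusted p of 0.9999 by edgeR. In the granulosa-rich libraries COQ10B stood at 219, 69.5, 322, 589 and 217 CPM in control and at 57.8, 58.2, 68.1 and 131 CPM in treatment, so that only control replicate 3 lay within the treatment range. Its log2 fold change there was -1.83 ± 0.52 (adjusted p = 0.983 by edgeR).

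CHAC1, an enzyme that breaks glutathione down and is induced under amino acid and endoplasmic reticulum stress, stood at 898, 46.9, 407, 56 and 476 CPM in the granulosa-rich controls and at 7.13, 28, 83.7 and 17.5 CPM in treatment. Treatment replicate 6 alone lay above the lowest control. The log2 fold change was -3.47 ± 1.02 (adjusted p = 0.983 by edgeR), and DESeq2, with -3.48, called it at an adjusted p of 0.0339. Over all settings run, its adjusted p ran from 0.0339 to 1. In the leukocyte-rich libraries CHAC1 was at most 0.772 CPM but for 30.9 CPM in treatment replicate 1. In the granulosa-rich libraries in which COQ10B and CHAC1 were compared, the labels overlapped in all granulosa markers but 1, NR5A2. NR5A2, a granulosa transcription factor gene, was at 30.5 to 90.8 CPM in control and 2.02 to 22.3 CPM in treatment. INHA, by contrast, was at 1833 to 3599 CPM and 1584 to 2617 CPM, and FST was highest in treatment replicate 5, at 24808 CPM. The 12 granulosa markers summed to 99940.2 to 228028 CPM in control and 48296 to 189765 CPM in treatment. The 5 theca markers summed to 486 to 1822 CPM and 125 to 965 CPM, and both sums overlapped between labels. Control replicate 3, low in COQ10B, had the lowest CYP17A1, INSL3 and LHCGR of the granulosa-rich controls, at 24.3, 35.1 and 30.2 CPM. The other theca markers went the other way in it. Its COL1A1, 520.2 CPM, was the highest of these controls, and its COL3A1 was 724 CPM against 0.814 to 774 CPM in the others. The part of these markers in the COQ10B and CHAC1 values was not tested. In the leukocyte-rich libraries the lowest p were those of GGCT, a glutathione-cycle enzyme, with a log2 fold change of -0.68 ± 0.19 (SE), and MAFF, a small partner of NRF2, with 1.01 ± 0.43, both at an adjusted p of 0.9996 by edgeR. GGCT stood at 129, 96.4, 113 and 160.1 CPM in control and 74.6, 74.2 and 83.1 CPM in treatment, with no overlap.

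**Figure D5:**
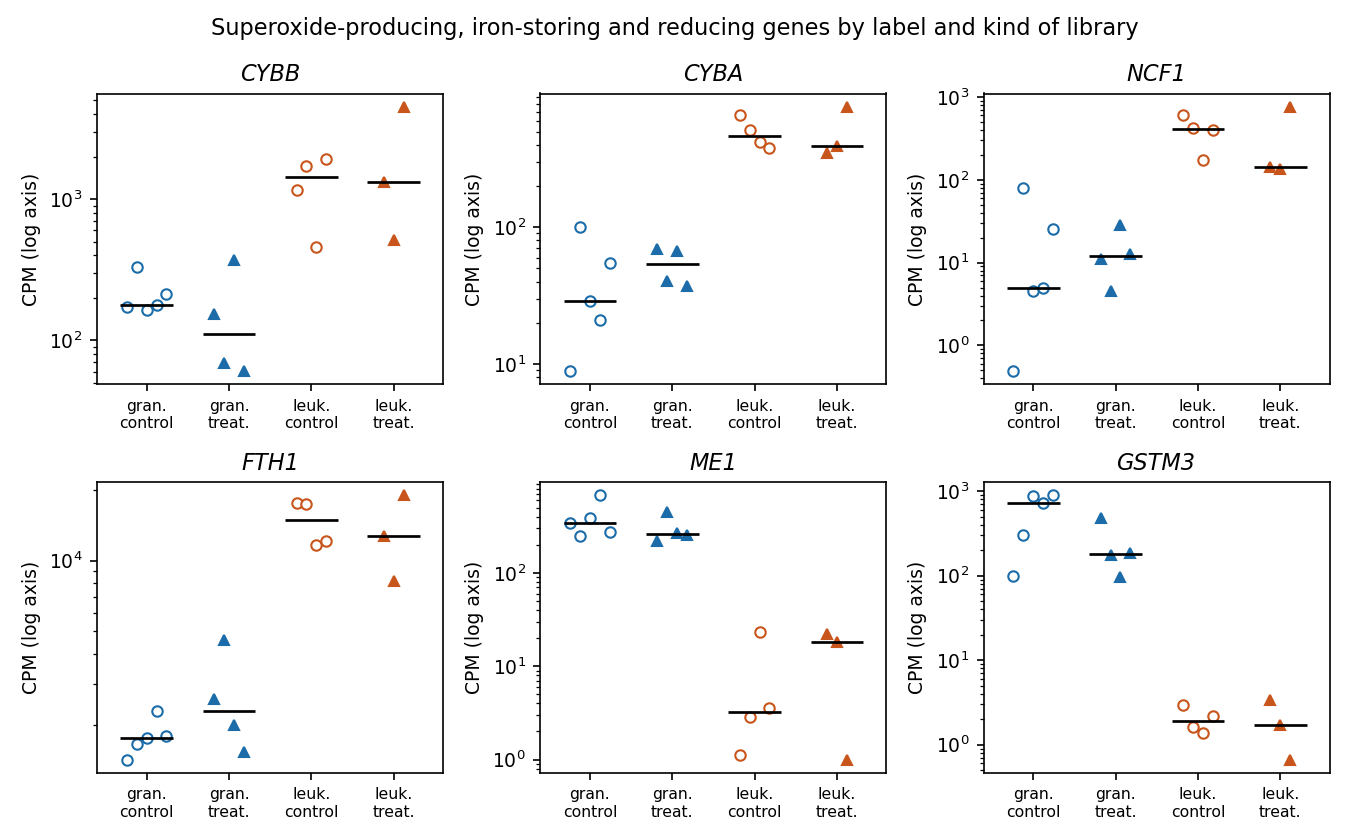
CPM after TMM scaling (log axes) of CYBB, CYBA, NCF1, FTH1, ME1 and GSTM3 by kind and label, 1 symbol per library with a bar at the median. The 2 kinds of library are fully apart in each panel, with CYBB, CYBA, NCF1 and FTH1 higher in the leukocyte-rich and ME1 and GSTM3 in the granulosa-rich libraries.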

How the data were processed

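The authors deposited raw counts per RefSeq transcript accession for each library. Reads passed through cutadapt, Bowtie2 and SAMtools, per the submitters' processing notes, which give no order or version. The build and counting rule were not given in the sources used here, and the library kit does not mark strand. Of 27306 accessions, 133 genomic records (0.712% to 1.92% of counts) were left out. Accessions were matched to gene symbols by the RefSeq gene table for assembly ARS-UCD2.0, ignoring version: 18973 of 27173 matched, with 96.3% of transcript counts. Counts were summed per gene.

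Libraries were granulosa-rich with INHA above 1000 CPM and leukocyte-rich below 200 CPM. Labels were compared with edgeR 4.0.16 (R 4.3.3; quasi-likelihood, TMM, filterByExpr, robust), with DESeq2 1.42.0 and limma-voom (limma 3.58.1) as alternatives, at a Benjamini-Hochberg adjusted p under 0.05 over all features. The script was tested on simulated data. Other alternatives were 2 scalings, no filter, matched transcripts only, same accession version only, library kind as covariate, the replicate number as a block, and each library left out in turn.

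Values in every library are given for the 5 members with the largest ratio of medians in each direction among those whose kinds do not overlap (only 3 were leukocyte-rich), and for the 3 with the lowest p in each fit. Of the wider list, the 3 largest ratios per direction among genes whose kinds do not overlap and the 2 lowest p per label fit are named. Members and lists were chosen with earlier results of these data known.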

Additional observations from a re-analysis of the deposited data

Results flagged for a closer look

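In groups of 4 to 10 libraries, a library was singled out where its gap to the nearest other was a large share of the group's range (Dixon's test at 95%). This held for 11 of 135 groups examined, and chance alone gives about 1 in 20 for independent groups of like libraries. Some groups held all libraries of a label, with both kinds mixed, and shared libraries with the within-kind groups. The rate is therefore only a rough guide here. Values are CPM after TMM scaling. SOD1 stood at 1183 in treatment replicate 5 against 246 to 433 in the other treatment libraries. PRDX4 stood at 76.9 in the same library, against 9.7 to 16.4 in the other treatment libraries and 9.7 to 12.5 in the other granulosa-rich ones of that label. PRDX4 was at 2.65 in control replicate 9 against 13.7 to 38.6 in the other controls. PRDX5 was at 86.4 in that library against 209 to 229 in the other leukocyte-rich controls, and at 154 in control replicate 3 against 75.8 to 83.2 in the other granulosa-rich controls. Treatment replicate 7 held 261 of TXN2 against 98.8 to 132 in the other treatment libraries, and 15.6 of TXNRD2 against 50.7 to 81.2. It also held 135 of GSR against 96.2 to 101 in the other granulosa-rich treatment libraries. GPX8 was at 12.5 in control replicate 6 against 1.19 to 1.39 in the other leukocyte-rich controls. KEAP1 was at 0.417 in control replicate 8 against 1.25 to 1.79 in the other granulosa-rich controls.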

How the results depend on the processing

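The number of members called was 0 in all 4 comparisons under each alternative run, and 0 to 0 with each library left out. The number of all features called was likewise 0 throughout, except that DESeq2 called 26 in granulosa-rich libraries and 29 in the interaction; the cause was not tested. With each library left out, members with granulosa-rich libraries above numbered 9 to 9 and those with leukocyte-rich libraries above 3 to 4. Without treatment replicate 1, the log2 fold change of HMOX1 over 16 libraries turned to -0.52, that of GSTA1 in leukocyte-rich libraries to -1.34 and that of GSTA1 in the interaction to -1.21; leaving out other libraries gave at most 1.52, 3.64 and 3.88. GCLC had a log2 ratio between kinds of 5.58, against 4.66, with same-version accessions. With library size alone, 62.6% of features were higher in treatment over 16 libraries (17 members) and 64.8% in granulosa-rich ones (18 members), where the median of all features was 0.19 against 0.04. Members higher in treatment numbered 10 of 27 over 16 libraries and 9 in granulosa-rich ones by limma-voom. Without treatment replicate 5 they numbered 7 and 8. TXNRD1 could not be fitted with same-version accessions.

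Labels share replicate numbers, but nothing ties equal numbers to an animal or day. Deviations were taken from the label mean only, so differences between kinds remained in them. Their correlations were 0.60, 0.31 and 0.44 for replicates 1, 4 and 7, whose libraries share a kind. For replicates 2, 3, 5 and 6, of unlike kinds, they were -0.60, -0.27, -0.45 and -0.60. Although 0 of 7 treatment libraries correlated best with their own number, this cannot decide whether the numbers pair libraries. Within granulosa-rich libraries alone, replicates 4 and 7 gave -0.13 and 0.13, and neither was the best match. With the replicate number as a block, edgeR called 0 features; features with an unadjusted p under 0.05 numbered 51 against 163 over 16 libraries. In granulosa-rich libraries, where only replicates 4 and 7 are shared and 1 residual degree of freedom is left, they numbered 1022 against 433, and 5 of 27 members were higher in treatment. No paired analysis was possible in leukocyte-rich libraries because they share only 1 number. KEAP1 and the 3 untested members lay near the detection limit. Whether depth, the counting of reads or low expression explains their few counts was not tested.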

Other observations

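Genes for 4 subunits of the phagocyte NADPH oxidase, the enzyme that makes superoxide on purpose, were chosen for description after their values were seen. CYBB, its catalytic subunit, ranged from 60.8 to 369 CPM (median 173) in granulosa-rich and from 459 to 4499 CPM (median 1325) in leukocyte-rich libraries. CYBA, the membrane partner of CYBB, ranged from 8.88 to 99.8 CPM and from 349 to 759 CPM. NCF1 ranged from 0.489 to 78.9 CPM and from 135 to 765 CPM, and NCF4, a further cytosolic subunit, had a ratio of medians of 10.5 toward leukocyte-rich libraries. These 4 genes were fully apart by kind.

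FTH1, the ferritin heavy chain that stores the iron which HMOX1 releases from heme, ranged from 1427 to 4600.1 CPM in granulosa-rich and from 8220.2 to 18939.5 CPM in leukocyte-rich libraries, a ratio of medians of 7.05. GLRX, a cytosolic glutaredoxin, and SELENOP, a secreted selenium carrier, had ratios of 8.11 and 10.5 in the same direction. GLRX5, a mitochondrial glutaredoxin needed for iron-sulfur clusters, ran the other way at 7.32, as did AOX1 (aldehyde oxidase) at 20.8 and EPHX2 (soluble epoxide hydrolase) at 14.8. These genes too were chosen after their values were seen, and the kinds of library were set from the data, so the values carry no test.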
